A study of Mus musculus with 2 samples.

Results

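The 9 genes described here encode small proteins of the S100 family (S100a4, S100a6, S100a10, S100a11), galectins (Lgals1, Lgals3), annexins (Anxa1, Anxa2) and the actin-capping protein Capg. They were taken by symbol from the 32285 gene identifiers of the count matrices, where all 9 were found. Their levels were read in regulatory T cells (Tregs, the Foxp3-dependent CD4 T cells that hold immune responses in check) taken from tumours of C57BL/6 mice aged 8 to 12 weeks. The WT library came from the genotype JMJD1CWT. The cKO library came from JMJD1CTregcKO, in which Jmjd1c, a gene of the JmjC family of histone demethylases, was deleted in Tregs. Cells were enriched on Percoll, selected by magnetic beads and then by a fluorescent sort, and libraries were made with a droplet 3' protocol. The tumour model, the number of animals in a library, the Cre driver and the deleted exons were not in the labels. Each genotype has 1 library, so no difference between WT and cKO has a replicate check. Intervals given below are 95% intervals that cover counting error only.

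Most S100 proteins, S100a10 not among them, bind calcium through EF-hand motifs and then dock onto partner proteins. S100a10 pairs with annexin A2 at membranes, S100a11 binds annexin A1, S100a4 binds non-muscle myosin and S100a6 binds the calcyclin-binding protein. Galectins bind sugars of the galactose type on cell-surface glycoproteins, and annexins bind acidic phospholipids when calcium is present. In T cells, several of these genes are known to be expressed more in activated and effector cells than in naive ones, and galectin-1 is a known product of Tregs.

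The 4 S100 genes lie in 2 close pairs on chromosome 3 (mm10, plus strand, GENCODE M21). S100a4 (ENSMUSG00000001020, chr3:90603771-90606045) is followed after 6836 bases by S100a6 (ENSMUSG00000001025, chr3:90612882-90624181). S100a11 (ENSMUSG00000027907, chr3:93520488-93526287) is followed after 28792 bases by S100a10 (ENSMUSG00000041959, chr3:93555080-93564643). Lgals1 (ENSMUSG00000068220) lies at chr15:78926725-78930465 and Lgals3 (ENSMUSG00000050335) at chr14:47367751-47386160, both on the plus strand. Anxa1 (ENSMUSG00000024659) lies at chr19:20373428-20390944 on the minus strand, and Anxa2 (ENSMUSG00000032231) at chr9:69453620-69491795 on the plus strand. Capg (ENSMUSG00000056737) lies at chr6:72544391-72562983 on the plus strand. S100a4 overlaps the protein-coding model Gm42674 on its own strand, which is not a row of the matrices. Anxa1 and Anxa2 each overlap a noncoding gene on the other strand (1500015L24Rik and Gm16144). Annotated pseudogenes of S100a11 (S100a11-ps) and Lgals1 (Lgals1-ps1, Lgals1-ps2) are not rows of the matrices.

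Upstream sequences were read from the RefSeq table (GRCm38.p6), which held 7 of the 9 genes, all but S100a10 and Lgals1. Starts are those of RefSeq and differ from the GENCODE bounds given above. The windows of S100a6, S100a11 and Anxa2 end past the GENCODE start. Those of Lgals3, Anxa1 and Capg lie inside the GENCODE gene. The 250 bases before the start of 4 genes are printed, chosen because S100a4 and S100a6 are neighbours whose levels differed in opposite senses between the libraries, and S100a11 and Anxa2, which also differed in opposite senses, both hold AP-1 and GC box matches. Capitals mark matches to 5 motifs on either strand. AP-1 was searched as TGANTCA, the GC box as GGGCGG, the CACCC box by the letters of its name, the E-box as CACGTG and the TATA box as TATAAA. The windows are chr3:90603520-90603769 for S100a4, chr3:90612644-90612893 for S100a6, chr3:93520246-93520495 for S100a11 and chr9:69453433-69453682 for Anxa2, all plus strand.
S100a4: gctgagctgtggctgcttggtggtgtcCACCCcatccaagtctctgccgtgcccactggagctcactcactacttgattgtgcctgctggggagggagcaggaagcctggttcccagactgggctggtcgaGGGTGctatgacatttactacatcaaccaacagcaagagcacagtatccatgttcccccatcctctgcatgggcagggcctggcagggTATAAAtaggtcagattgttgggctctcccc
S100a6: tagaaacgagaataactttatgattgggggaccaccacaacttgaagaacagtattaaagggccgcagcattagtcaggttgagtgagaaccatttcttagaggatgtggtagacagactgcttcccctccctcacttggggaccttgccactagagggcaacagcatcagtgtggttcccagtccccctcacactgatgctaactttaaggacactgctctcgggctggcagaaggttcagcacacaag
S100a11: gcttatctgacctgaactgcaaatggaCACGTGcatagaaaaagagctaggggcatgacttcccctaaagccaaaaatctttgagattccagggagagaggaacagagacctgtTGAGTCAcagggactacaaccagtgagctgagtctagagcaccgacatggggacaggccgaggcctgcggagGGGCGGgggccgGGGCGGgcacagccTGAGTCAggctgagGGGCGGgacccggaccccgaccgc
Anxa2: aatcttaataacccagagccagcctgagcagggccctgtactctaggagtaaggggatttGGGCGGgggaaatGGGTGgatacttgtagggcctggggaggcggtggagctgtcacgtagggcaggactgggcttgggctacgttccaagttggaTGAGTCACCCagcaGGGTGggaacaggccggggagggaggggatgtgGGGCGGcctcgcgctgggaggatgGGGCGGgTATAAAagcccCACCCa

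S100a4 held 1 TATA box, with its first base 31 bases before the start, and 2 CACCC boxes. None of the 5 motifs was found in these letters for S100a6. S100a11 held 2 AP-1 matches, 3 GC boxes and 1 E-box. Anxa2 held 1 AP-1 match, 3 GC boxes, 4 CACCC boxes and 1 TATA box, and its AP-1 match overlaps a CACCC box. Among the 3 genes not printed, Lgals3 held 1 GC box and 2 CACCC boxes, Anxa1 held 1 TATA box and Capg 1 CACCC box. Of 32851 RefSeq windows of the same length, 6.75% held an AP-1 match, 32.7% a GC box, 52.0% a CACCC box, 6.02% an E-box and 12.4% a TATA box. These matches describe the letters and do not show binding.

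Barcodes were kept if at least 500 genes were detected and mitochondrial UMIs (unique molecular identifiers, 1 per captured transcript) made up under 10%. They numbered 3842 of 3905 in WT and 4026 of 4105 in cKO, with medians of 9088 and 6953 UMIs, and 2 barcode sequences occurred in both libraries. Cells were classed by UMIs of gate genes that do not include the 9. Tregs numbered 3240 in WT and 2834 in cKO, with medians of 8546 and 6427 UMIs. CD8 T cells numbered 213 and 407, myeloid cells 103 and 321, and natural killer (NK) cells 1 and 36. Jmjd1c (ENSMUSG00000037876) stood at 88.6 CPM (UMIs of a gene scaled to a common class total) in WT Tregs and 74.1 CPM in cKO Tregs, a ratio of 0.836 (0.789 to 0.886). The tags come from the transcript's 3' end and the deleted exons are not known here, so this level checks neither the deletion nor the labels. Xist stood at 918 CPM in WT Tregs and had 7 UMIs in cKO Tregs, so the libraries differ in sex as well as genotype, and the 2 cannot be told apart in any result below.

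All 6 fixed Treg markers had a UMI in the Treg class of both libraries, which does not check the label. Foxp3, Il2ra, Ikzf2 and Ctla4 among them are gate genes. All 6 also had a UMI in the CD8 T and myeloid classes. Marker lists of other cell types were summed in WT and cKO Tregs. The sums were 30.4 and 65.4 CPM for 10 myeloid markers and 20.4 and 204 CPM for 6 NK markers. They were 61.2 and 26.3 CPM for 5 dendritic markers and 8.66 and 11.8 CPM for 4 globin genes. Neutrophil, fibroblast and B cell lists were each at most 1.39 CPM, a list of 5 tumour markers stood at 14.4 and 21.7 CPM, and Ncr1 and Klra8 were at 0 UMIs in WT Tregs. The part of these transcripts in the differences below was not tested. The CD8 T label went partly against its cells. The summed Treg markers in that class stood at 51.8% of their level in Tregs in WT and 30.0% in cKO. Only 23 of 213 WT and 134 of 407 cKO barcodes held at most 2 UMIs of Foxp3, Il2ra, Ikzf2 and Ctla4. These had medians of 13983 and 6880 UMIs, so the cut was applied at unlike depth. The 5 dendritic markers summed to 162 CPM in the whole CD8 T class in WT and 22.2 CPM in cKO. Whether the CD8 T barcodes of the libraries hold like cells was not tested. In the myeloid class the Treg markers stood at 22.7% and 14.1% of their Treg level. Doublets were not removed. CD8 T values are therefore also given for the barcodes with at most 2 UMIs of those gate genes. Myeloid values are also given for the barcodes with no Cd3e or Cd3g UMI.

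In tumour Tregs, the 9 genes did not differ between the libraries as 1 block. S100a6, Lgals3, Anxa1 and Anxa2 were at least 1.5-fold higher in cKO, Lgals1 and Capg were higher by less, S100a4 and S100a10 were slightly lower, and S100a11 was lower by more than 1.5-fold. Where the mean in Tregs was 20 CPM or more, which leaves out Anxa1, 3 of 8 members were at least 1.5-fold higher in cKO, against 5.54% of 5158 genes. In the same comparison 1 of 8 was at least 1.5-fold lower, against 3.84% of genes. The median log2 ratio, log2((CPM cKO + 5)/(CPM WT + 5)), was 0.31 over the 8 members and 0.02 over all genes tested.

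**Figure D1:**
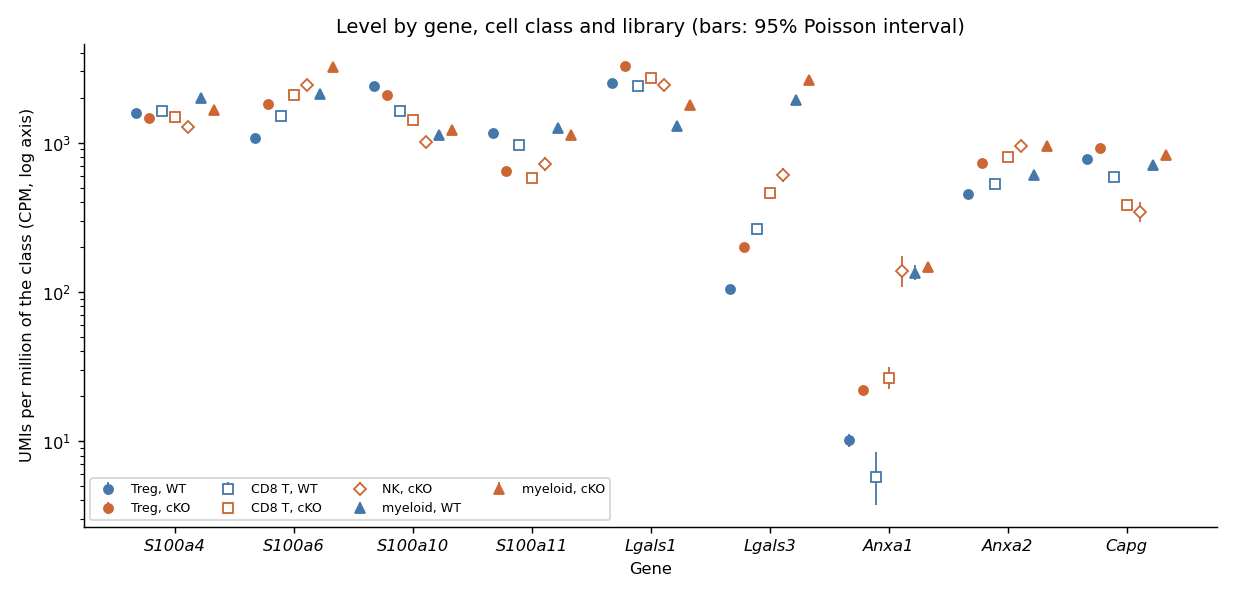
Level of each gene (y axis, CPM, log scale) in each class and library, with exact Poisson 95% intervals; the NK class is shown for cKO alone. Lgals3 and Anxa1 are far higher in myeloid cells than in Tregs, and S100a10 and Lgals1 are lower there.

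S100a6, or calcyclin, stood at 1068 CPM in WT Tregs and 1803 CPM in cKO Tregs, a ratio of 1.69 (1.66 to 1.71). The difference held across the distribution of cells. When each Treg was thinned to 4000 UMIs, which left 3145 WT and 2502 cKO cells, the median was 2 S100a6 UMIs in WT and 5 in cKO. The highest 10% of cells began at 11 UMIs in WT and 18 in cKO. A UMI was found in 77.2% of WT Tregs (75.7 to 78.7) and 87.9% of cKO Tregs (86.5 to 89.1), and in 85.0% and 90.5% without thinning.

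S100a4, its neighbour on chromosome 3 and a partner of myosin, stood at 1577 CPM in WT and 1466 CPM in cKO, a ratio of 0.930 (0.918 to 0.942). The share of thinned Tregs with a UMI was 84.0% in WT and 85.9% in cKO, with medians of 4 and 5 UMIs. The levels thus lay close together while those of S100a6, 6836 bases away, did not.

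S100a11 was the member furthest below WT. It stood at 1169 CPM in WT Tregs and 648 CPM in cKO Tregs, a ratio of 0.555 (0.544 to 0.565), or 1.80-fold lower. The median thinned Treg held 4 UMIs in WT and 2 in cKO. A UMI was found in 96.1% (95.4 to 96.8) and 87.2% (85.8 to 88.5) of thinned Tregs, and in 98.5% and 92.1% of unthinned ones. S100a10, which lies beside S100a11 and encodes the light chain that joins annexin A2, stood at 2400 CPM in WT and 2077 CPM in cKO, a ratio of 0.865 (0.856 to 0.875). It was found in nearly every thinned Treg, 99.6% in WT and 99.0% in cKO, with medians of 9 and 7 UMIs.

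Lgals1, which encodes galectin-1, stood at 2515 CPM in WT Tregs and 3244 CPM in cKO Tregs, a ratio of 1.29 (1.28 to 1.30). Thinned Tregs held a median of 8 UMIs in WT and 11 in cKO, and 98.0% and 98.5% of them had a UMI. That share was near its ceiling in both libraries.

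Lgals3 encodes galectin-3, a lectin that macrophages make in quantity. It stood at 104 CPM in WT Tregs and 201 CPM in cKO Tregs, a ratio of 1.93 (1.85 to 2.01). A UMI was found in 25.7% of thinned WT Tregs (24.1 to 27.2) and 34.3% of cKO Tregs (32.4 to 36.1), in 40.4% and 44.9% of unthinned Tregs, and in 98.0% and 98.4% of thinned myeloid cells. The Treg level of Lgals3 was 5.43% of the myeloid level in WT and 7.65% in cKO. For 8 myeloid markers outside the gates, among them C1qb, C1qc, Csf1r, Apoe and Cd68, the same share ran from 0.0840% to 2.34% in WT. In cKO it ran from 0.288% up to that of Cd68, whose interval was 3.58% to 4.46%. Lgals3 stood above the range of these markers in each library. The Treg gate caps Lyz2 and C1qa, so these shares depend on the gate. The part of myeloid RNA, free or from doublets, in the Lgals3 level of Tregs was not tested. Among Tregs with no Lyz2 or C1qa UMI its log2 ratio was 0.86, against 0.91 in all Tregs.

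Anxa2, whose protein links membranes to actin, stood at 455 CPM in WT Tregs and 726 CPM in cKO Tregs, a ratio of 1.60 (1.56 to 1.63). The median thinned Treg held 1 UMI in WT and 2 in cKO, and the highest 10% of cells began at 4 and 7 UMIs. A UMI was found in 71.6% and 76.5% of thinned Tregs, but in 86.0% and 81.9% of unthinned ones, where WT cells are deeper. Anxa1, whose protein acts on formyl peptide receptors, was sparse. It had 387 UMIs in WT Tregs and 515 in cKO Tregs, or 10.2 and 21.9 CPM, a ratio of 2.16 (1.89 to 2.47). Thinned Tregs held an Anxa1 UMI in 3.24% (2.65 to 3.92) and 6.59% (5.65 to 7.64) of cells, against 28.4% and 35.4% of myeloid cells, and unthinned Tregs in 6.85% and 9.46%. The Treg level of Anxa1 was 7.55% of the myeloid level in WT and 14.9% in cKO.

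Capg, which caps the fast-growing ends of actin filaments, stood at 777 CPM in WT Tregs and 923 CPM in cKO Tregs, a ratio of 1.19 (1.17 to 1.21). Its median was 3 UMIs per thinned Treg in both libraries. Most thinned Tregs held several members at once. A UMI of 7 of the 9 genes was the most common state, in 39.2% of WT and 37.4% of cKO Tregs. All 9 were detected in 0.763% of WT and 2.72% of cKO Tregs, and 8 in 14.1% and 21.1%.

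**Figure D2:**
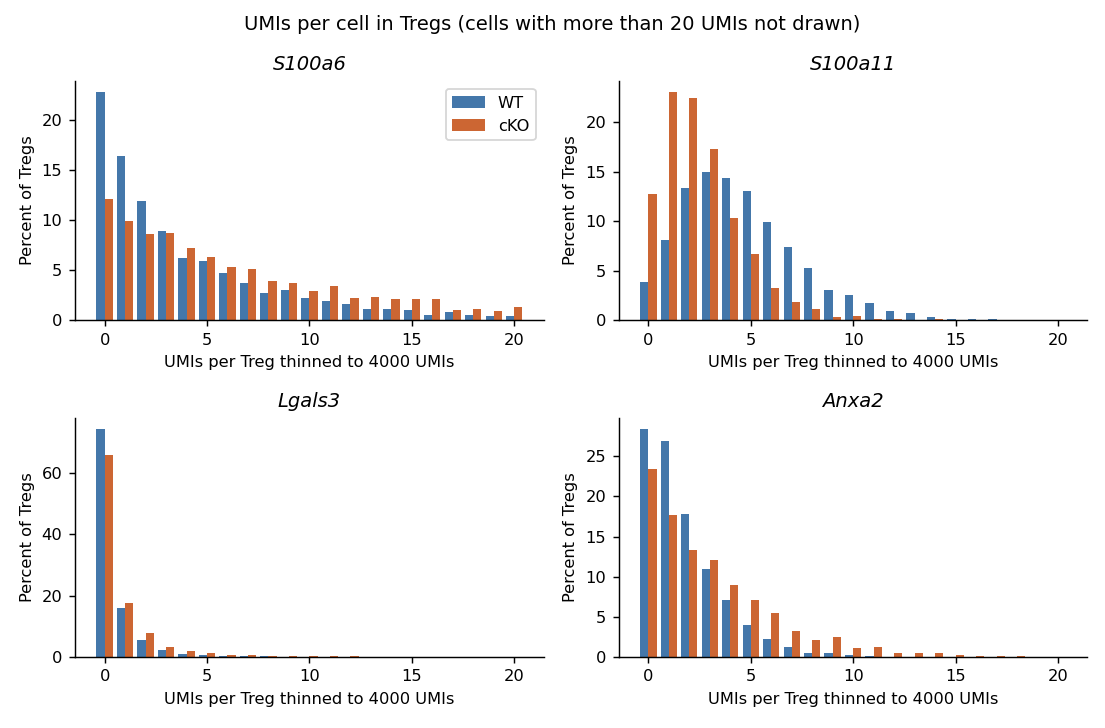
Percent of Tregs (y axis) by the number of UMIs of S100a6, S100a11, Lgals3 and Anxa2 in cells thinned to 4000 UMIs (x axis), in WT and cKO. The cKO distribution of S100a11 sits lower than in WT (medians 2 and 4 UMIs), and that of S100a6 sits higher (5 and 2).

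Levels in myeloid cells were compared with those in Tregs inside each library. Where the mean of the 2 classes was 20 CPM or more, 3 of 9 members were at least 1.5-fold higher in WT myeloid cells than in WT Tregs (S100a6, Lgals3 and Anxa1), against 17.7% of 5344 genes, and 2 of 9 were at least 1.5-fold lower (S100a10 and Lgals1), against 20.3%. In cKO 4 of 9 were higher, with S100a11 added, against 18.7% of 5263 genes, and the same 2 of 9 were lower, against 23.5%. The counts of lower members were thus near the shares over all genes. The largest differences of members between myeloid cells and Tregs were those of Lgals3 and Anxa1.

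Lgals3 in myeloid cells stood at 1919 CPM in WT and 2623 CPM in cKO, 18.4-fold (17.6 to 19.2) and 13.1-fold (12.6 to 13.5) above Tregs. CD8 T cells as gated lay between, at 265 and 463 CPM, and cKO NK cells stood at 610 CPM. CD8 T barcodes with at most 2 Treg UMIs stood at 80.3 CPM (51.5 to 120) in WT, not apart from WT Tregs, and 461 CPM in cKO. Anxa1 in myeloid cells stood at 134 CPM in WT and 147 CPM in cKO, 13.2-fold and 6.71-fold above Tregs. The 36 cKO NK cells held 72 Anxa1 UMIs, or 137 CPM (107 to 173), which is not apart from the myeloid level by these intervals. CD8 T cells held 5.73 CPM (26 UMIs) in WT and 26.5 CPM (137 UMIs) in cKO. The cKO value for CD8 T cells was not apart from that of cKO Tregs, with a ratio of 1.21 (0.996 to 1.46).

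S100a10 and Lgals1 had the reverse order, with Tregs highest and myeloid cells low. S100a10 stood at 1639 and 1420 CPM in WT and cKO CD8 T cells, at 1132 and 1222 CPM in myeloid cells and at 1015 CPM in cKO NK cells. Lgals1 stood at 2395 and 2698 CPM in CD8 T cells, 2423 CPM in cKO NK cells, and 1291 and 1799 CPM in myeloid cells. Among the classes as gated, S100a6 was lowest in Tregs in each library. It had 1514 and 2077 CPM in CD8 T cells, 2442 CPM in cKO NK cells, and 2135 and 3202 CPM in myeloid cells. Anxa2 followed the same order, with 532 and 805 CPM in CD8 T cells, 946 CPM in cKO NK cells, and 611 and 943 CPM in myeloid cells. Its NK and myeloid levels in cKO were not apart by their intervals (865 to 1033 and 915 to 971 CPM). In the CD8 T barcodes with at most 2 Treg UMIs the order changed. S100a6 stood there at 619 CPM in WT, below WT Tregs, and at 2065 CPM in cKO. Anxa2 stood there below Tregs in both libraries, at 117 and 577 CPM.

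S100a4 differed little by class as gated, at 1627 and 1484 CPM in CD8 T cells, 1276 CPM in cKO NK cells, and 1996 and 1651 CPM in myeloid cells. Its level in cKO CD8 T cells was not apart from that in cKO Tregs (ratio 1.01, 0.987 to 1.04). In the CD8 T barcodes with at most 2 Treg UMIs S100a4 was below Tregs, at 77.0 CPM in WT and 1186 CPM in cKO. S100a11 in myeloid cells was close to the WT Treg level in both libraries, at 1253 and 1124 CPM. It was 1.73-fold above Tregs in cKO (1.68 to 1.79) and 1.07-fold above them in WT (1.03 to 1.11). CD8 T cells stood at 964 and 576 CPM and cKO NK cells at 721 CPM. Capg was highest in Tregs in each library, followed by myeloid cells at 707 and 832 CPM, CD8 T cells at 590 and 381 CPM, and cKO NK cells at 343 CPM. The cKO CD8 T and NK levels of Capg were not apart by their intervals (365 to 399 and 295 to 397 CPM). In the CD8 T barcodes with at most 2 Treg UMIs Capg stood at 177 CPM in WT and 188 CPM in cKO. In the 41 WT and 218 cKO myeloid barcodes with no Cd3e or Cd3g UMI, Lgals3 stood at 2451 and 3049 CPM and Anxa1 at 117 and 169 CPM. S100a10 stood there at 915 and 1061 CPM and Lgals1 at 970 and 1415 CPM. The single WT barcode in the NK gate was not compared.

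The difference between cKO and WT was also read in the classes that the deletion is not labelled as targeting. In myeloid cells 1 of 9 members, Anxa2, was at least 1.5-fold higher in cKO, against 4.36% of 5133 genes, and 0 of 9 were at least 1.5-fold lower, against 4.19%. S100a6 was just under that fold, with an interval of 1.45 to 1.55, beside 1.54 for Anxa2 (1.45 to 1.64). Lgals1 and Lgals3 were higher in cKO there too, at 1.39 (1.34 to 1.45) and 1.37 (1.32 to 1.41). Thus S100a6, Lgals1, Lgals3 and Anxa2 were higher in cKO in both Tregs and myeloid cells. S100a11 was lower in cKO in both, at 0.897 (0.857 to 0.938) in myeloid cells. For Anxa1 the myeloid interval held 1 (1.09, 0.953 to 1.25). S100a10 was 1.08 (1.03 to 1.13) in myeloid cells and so on the other side of 1 from Tregs. In the 41 WT and 218 cKO myeloid barcodes with no Cd3e or Cd3g UMI, S100a6 was 1.35-fold, Anxa2 1.36-fold, Lgals1 1.46-fold and Lgals3 1.24-fold higher in cKO. S100a11 stood at 0.859 and Anxa1 at 1.45 (1.15 to 1.84) there.

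In CD8 T cells, again leaving out Anxa1 for its low mean, 2 of 8 members, Lgals3 (1.75) and Anxa2 (1.52), were at least 1.5-fold higher in cKO, against 3.85% of 5164 genes. Another 2 of 8, S100a11 (0.597) and Capg (0.647), were at least 1.5-fold lower, against 6.78%. These ratios rested on barcodes that also held Treg transcripts. In the 23 WT and 134 cKO barcodes with at most 2 Treg UMIs, S100a4 stood at 77.0 CPM in WT (23 UMIs) and 1186 CPM in cKO (1252 UMIs). S100a10 stood at 224 and 1194 CPM, S100a11 at 274 and 513 CPM, Lgals3 at 80.3 and 461 CPM and Capg at 177 and 188 CPM. So S100a4, S100a10 and S100a11 went from lower to higher in cKO, and Capg had a ratio of 1.06 (0.777 to 1.46). Anxa1 had 0 UMIs in these WT barcodes. The WT and cKO barcodes also differed in depth (medians of 13983 and 6880 UMIs), and whether they are like cells was not tested. In the 190 WT and 273 cKO barcodes with more Treg UMIs the ratios were close to those of the whole class, for example 0.899 for S100a4 and 0.584 for S100a11.

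**Figure D3:**
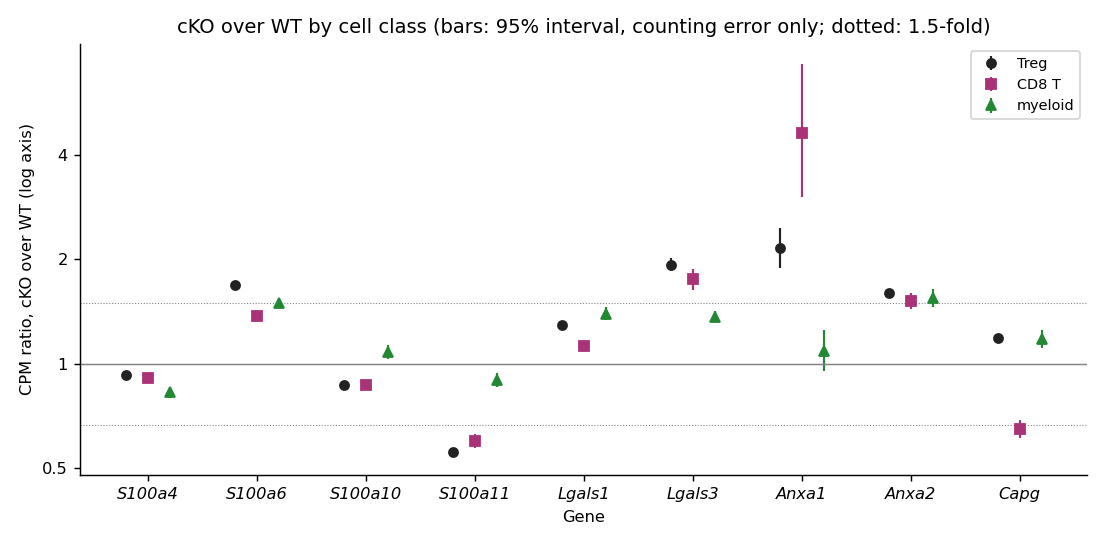
Ratio of the cKO to the WT level (y axis, log scale) of each gene in Tregs, CD8 T cells and myeloid cells, with exact 95% intervals for counting error; dotted lines mark 1.5-fold. S100a6, Lgals1, Lgals3 and Anxa2 lie above 1 and S100a4 and S100a11 below 1 in all 3 classes, while S100a10 and Capg lie on both sides.

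Within Tregs, the members were next read against Gzmb, the gene of the cytotoxic protease granzyme B, since Gzmb itself differed widely between the libraries. It stood at 484 CPM in WT Tregs and 4144 CPM in cKO Tregs. After thinning, 21.8% of WT and 78.2% of cKO Tregs held at least 2 Gzmb UMIs, and 68.8% and 15.6% held none. At least 2 Gzmb UMIs were also found in 11.8% of WT and 22.0% of cKO myeloid cells. The part of free or doublet RNA in the Gzmb split was not tested.

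Tregs with at least 2 Gzmb UMIs were compared with those without any inside each library. In WT 3 of 8 members that reached a mean of 20 CPM (S100a4, S100a6 and Lgals3) were at least 1.5-fold higher, against 2.9% of 5198 genes, and 0 of 8 were at least 1.5-fold lower, against 1.67%. In cKO 6 of 9 were higher, with Lgals1, Anxa1 and Anxa2 added, against 4.66% of 5065 genes, and 0 of 9 were lower, against 2.51%. S100a6 stood at 1624 against 888 CPM in WT (1.83-fold, 1.76 to 1.90) and at 2104 against 993 CPM in cKO (2.12-fold, 2.01 to 2.23). S100a4 stood at 2235 against 1388 CPM in WT and 1718 against 991 CPM in cKO, ratios of 1.61 and 1.73. Lgals3 had ratios of 1.76 and 2.52, Lgals1 of 1.35 and 1.75, Anxa2 of 1.26 and 1.61, and Capg of 1.27 and 1.31. Anxa1, on few UMIs, had ratios of 2.46 (1.69 to 3.58) and 1.93 (1.24 to 3.15). S100a11 hardly moved with Gzmb, at 0.975 (0.936 to 1.02) in WT and 1.05 (0.980 to 1.13) in cKO, and S100a10 was slightly lower in WT (0.924 to 0.977) and slightly higher in cKO (1.12, 1.08 to 1.17).

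Splitting Tregs further, into 6 bins of 0, 1, 2 to 4, 5 to 9, 10 to 19 and 20 or more Gzmb UMIs, put cells of the same bin from both libraries side by side. The highest bin has no upper bound, and the Gzmb level inside a bin was not compared between the libraries. These bins were chosen after seeing the data. The bins use thinned cells, whereas the ratios over all Tregs use unthinned sums, so the 2 are not the same measure. Thinned Tregs held a mean of 0.457 Lgals3 UMIs in WT and 0.787 in cKO, and of 6.42 and 6.27 S100a4 UMIs. S100a4 was lower in cKO in all 6 bins, with ratios from 0.653 to 0.891 and every interval below 1, although the ratio over all Tregs was 0.930. In WT its level ran from 1388 CPM in the bin without Gzmb to 2453 CPM at 10 to 19 UMIs and 2135 CPM at 20 or more. In cKO it ran from 991 to 1901 CPM. A large share of cKO Tregs lay in the bins where S100a4 was high, with 903 of 2502 in the highest bin against 102 of 3145 in WT. The part of this spread over bins in the S100a4 ratio over all Tregs was not tested.

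S100a6 ran from 888 to 2142 CPM across the bins in WT and from 993 to 2356 CPM in cKO. Its ratio within a bin was 0.987 to 1.23, against 1.69 over all Tregs, and 5 of 6 bins had an interval above 1. Lgals1 ran from 2097 to 3162 CPM in WT and from 1946 to 3838 CPM in cKO, with ratios from 0.927 to 1.21 that fell on both sides of 1. Lgals3 had ratios from 0.836 to 1.37, with 2 of 6 intervals above 1 and none below, against 1.93 over all Tregs. Capg had ratios from 0.962 to 1.09 and an interval that held 1 in every bin. For these 4 genes the cells of the same Gzmb bin differed less between the libraries than all Tregs did.

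S100a11 was lower in cKO in all 6 bins, with ratios from 0.485 to 0.673 and every interval below 1, against 0.555 over all Tregs. It stood at 1149 CPM without Gzmb and 951 CPM at 20 or more Gzmb UMIs in WT, and at 599 and 640 CPM in cKO. Anxa2 was higher in cKO in all 6 bins, with every interval above 1. Its ratio was 1.18 to 1.34 in the 4 lowest bins, 1.503 in the next and 1.80 in the highest, against 1.60 over all Tregs. In WT it stood at 417 CPM without Gzmb and 507 CPM in the highest bin, and in cKO at 503 and 915 CPM. S100a10 was lower in cKO in all 6 bins, from 0.753 to 0.960, with 4 of 6 intervals below 1. Anxa1 had at most 125 UMIs in a bin, and its ratio was above 1 in 3 of 6.

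**Figure D4:**
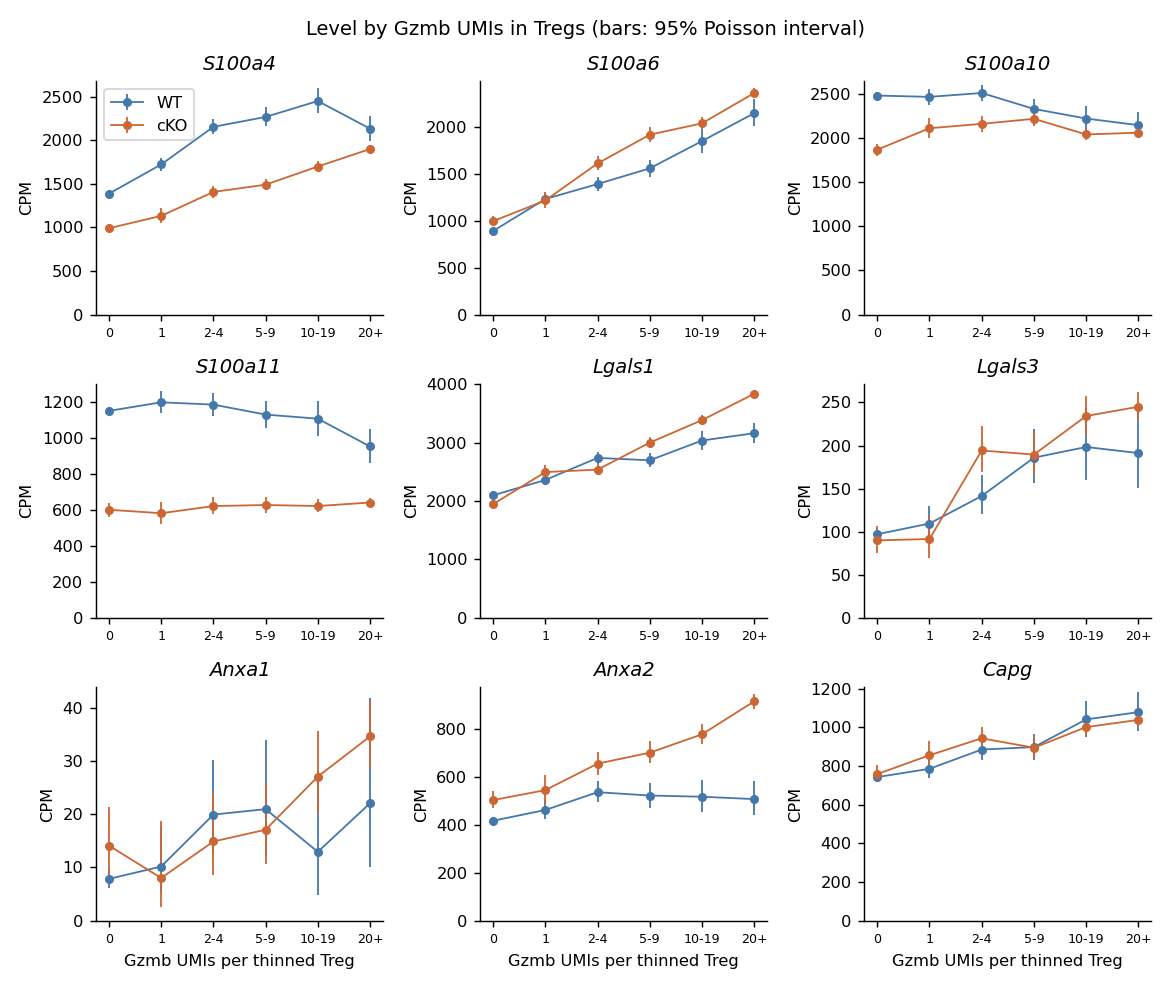
Level of each gene (y axis, CPM of thinned UMIs) in Tregs by their number of Gzmb UMIs (x axis, 6 bins), with exact Poisson 95% intervals, for WT and cKO. S100a4 and S100a11 lie lower in cKO in every bin, Anxa2 lies higher in every bin, and the S100a6 and Capg lines run close together.

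Other states split the members differently. In cycling Tregs (at least 2 UMIs of Mki67, Top2a and Birc5; 381 WT and 235 cKO cells), Lgals3 was lower than in the rest in both libraries, with ratios of 0.428 (0.337 to 0.536) and 0.462 (0.370 to 0.571). S100a4 was lower as well, at 0.777 and 0.578, and S100a6 at 0.799 and 0.623. Lgals1 was higher in cycling cells, at 1.18 (1.14 to 1.22) and 1.19 (1.15 to 1.23). Tregs with an S1pr1 UMI, the gene of a receptor that guides exit from tissue, had less Anxa2 than the rest, at 0.677 and 0.670, and less Lgals1, at 0.906 and 0.717. S100a6 had ratios of 1.34 in WT and 0.985 in cKO for that split. For a UMI of Pdcd1, the gene of PD-1, the ratios of all 9 genes lay between 0.731 and 1.18.

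Over the 8 sides of these splits, S100a11 and S100a10 were lower in cKO in 8 of 8, from 0.479 to 0.562 and from 0.753 to 0.941. S100a6, Anxa2 and Capg were higher in cKO in 8 of 8, from 1.12 to 1.77, 1.21 to 1.81 and 1.02 to 1.23. Lgals1 and Lgals3 were each higher in 7 of 8, the exception being Tregs without Gzmb (0.928 and 0.926, the latter with an interval of 0.769 to 1.11). S100a4 was lower in 7 of 8 and Anxa1 higher in 7 of 8. The sides share cells and are not separate readings.

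Across single Tregs the members went together weakly. Pearson's r of log(1 + UMIs) in thinned cells had a median of 0.111 in WT (3145 cells) and 0.158 in cKO (2502 cells) over the 36 pairs, as a description without a test. Cells of a library share its free RNA, and UMIs are few, so low values are not read. S100a4 and S100a6 had the highest r in both libraries, 0.377 and 0.390. The other neighbours on chromosome 3, S100a10 and S100a11, had 0.310 and 0.265. S100a4 with Lgals1 had 0.345 and 0.299, S100a6 with Lgals1 0.325 and 0.363, and Lgals1 with Capg 0.261 and 0.331. Anxa2 and S100a10, whose proteins form a complex, had 0.0982 and 0.0912. Anxa1 and S100a11 had 0.000923 and 0.0724.

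**Figure D5:**
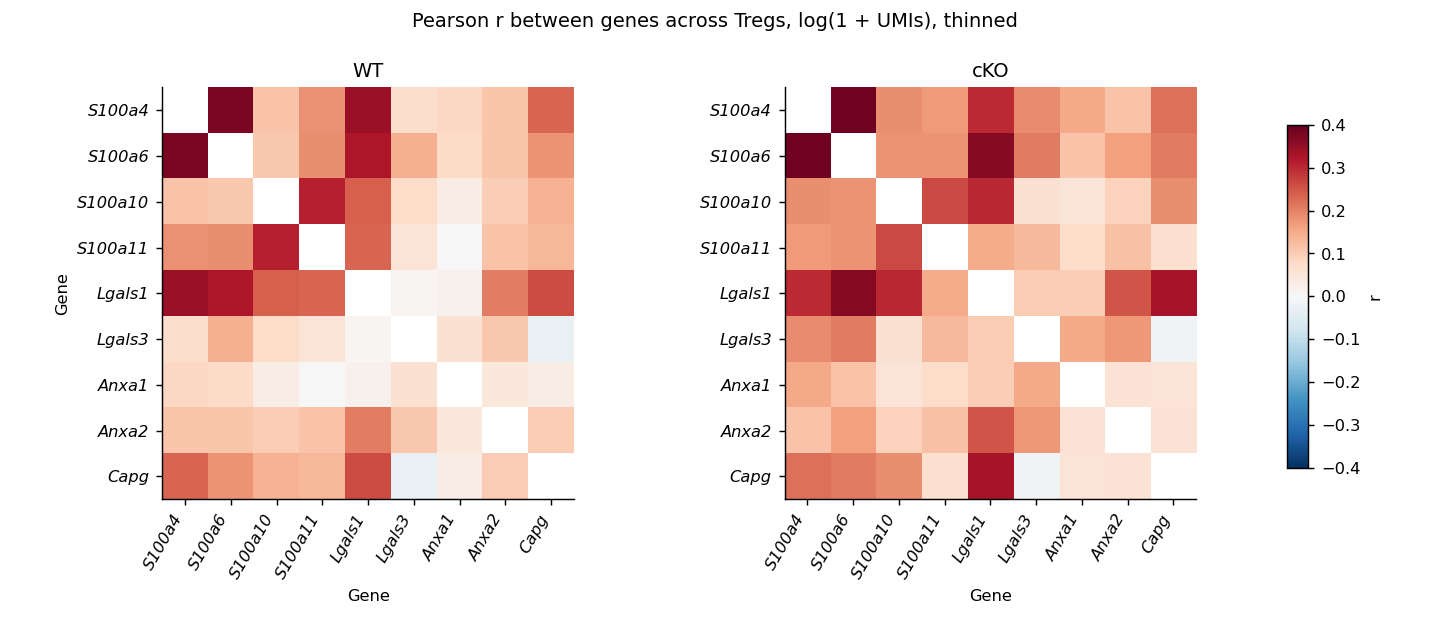
Pearson's r between each pair of the 9 genes across Tregs thinned to 4000 UMIs, in WT and cKO (colour scale from -0.4 to 0.4; the diagonal is left blank). S100a4, S100a6 and Lgals1 form the block with the highest values in WT, and S100a10 with S100a11 comes next. In cKO, Lgals1 with Capg (0.331) and with S100a10 (0.3025) stand above S100a4 with Lgals1 (0.299).

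The genes most like the summed log values of the members were ranked among 2716 genes whose mean in Tregs reached 50 CPM, by the lower r of the 2 libraries. The first 10 were Tmsb4x (0.507 in WT and 0.511 in cKO), Vim (0.455 and 0.435), Sh3bgrl3 (0.341 and 0.380), Myl6 (0.331 and 0.320), Actg1 (0.368 and 0.316), Pfn1 (0.293 and 0.285), S100a13 (0.282 and 0.340), Actb (0.385 and 0.277), Arhgdib (0.309 and 0.261) and Gapdh (0.260 and 0.270). Tmsb4x and Pfn1 bind actin monomers, Actb and Actg1 are the cytoplasmic actins and Vim is an intermediate filament. Between the libraries, Tmsb4x stood at 19427 CPM in WT and 19501 CPM in cKO and Myl6 at 1569 and 1574 CPM, while Actg1 had a ratio of 1.72 (1.71 to 1.73), Pfn1 of 1.43 and Actb of 1.38.

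The remaining genes of these families were mostly too low to compare. Of 10 other S100 genes 1 reached a mean of 20 CPM in Tregs, S100a13, at 367 CPM in WT and 441 CPM in cKO (ratio interval 1.17 to 1.23). Of 7 other galectins 3 passed that level, 0 were at least 1.5-fold higher and 1 lower, with a median log2 ratio of -0.09. Lgals7 was the lower one, at 34.8 and 15.8 CPM, while Lgals8 stood at 22.3 and 27.6 CPM and Lgals9 at 69.0 and 64.4 CPM. Of 10 other annexins 5 passed, 1 was at least 1.5-fold higher and 0 lower, with a median of 0.46. Anxa11 stood at 82.7 and 129 CPM (1.56, 1.49 to 1.64), Anxa6 at 196 and 291 CPM (1.48, 1.44 to 1.53) and Anxa5 at 103 and 145 CPM (1.40, 1.34 to 1.46). Among the 5 that passed, the 3 with the largest differences lay on the same side as Anxa2. Anxa3, with a mean under 20 CPM, lay on the other side, at 7.06 and 3.40 CPM (0.482, 0.370 to 0.620).

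Of 7 gelsolin-family genes, the relatives of Capg, 3 passed and none of these 3 reached 1.5-fold, with a median of -0.06. Gsn stood at 24.7 and 31.7 CPM, Flii at 61.1 and 53.4 CPM and Svil at 31.9 and 30.4 CPM. Scin, left out for a mean under 20 CPM, was lower in cKO, at 18.8 and 3.61 CPM (0.192, 0.151 to 0.241). Of 11 binding partners and receptors of the members 5 passed, 0 were at least 1.5-fold higher and 1 was lower, with a median of -0.19. Plscr1, a scramblase, stood at 116 and 60.3 CPM, the galectin-3 ligand gene Lgals3bp at 124 and 88.6 CPM and Cacybp, the calcyclin-binding protein, at 83.8 and 102 CPM. The formyl peptide receptor gene Fpr1 had 0 UMIs in Tregs of either library.

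All 11 cytoskeleton and adhesion genes of effector T cells passed, of which 2 were at least 1.5-fold higher in cKO and 1 lower, with a median of 0.31. Lmna, for the nuclear lamina, stood at 70.7 and 178 CPM (2.52, 2.40 to 2.65), Actg1 at 4532 and 7783 CPM, and the adhesion receptor gene Cd44 at 201 and 119 CPM (0.591, 0.566 to 0.617). Of 8 resting T cell genes 6 passed, 5 were at least 1.5-fold higher in cKO and 0 lower, with a median of 1.13. Klf2 stood at 87.3 and 247 CPM and Satb1 at 84.4 and 219 CPM. Ccr7, another gene of that list, went the other way, at 395 and 312 CPM (0.791, 0.770 to 0.814). Against these lists, 5.54% of all genes were higher and 3.84% lower by this fold.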

How the data were processed

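Tumour-infiltrating Tregs of WT and cKO mice were measured by droplet single-cell RNA sequencing, with 1 library per genotype. The deposited matrices give raw UMI counts for each gene in each barcode, which the authors made with Cell Ranger 5.0.1 and build mm10, per the submitters' processing notes. The annotation release, the use of intronic reads and any doublet removal before deposit were not stated in the labels or headers.

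Barcodes with at least 500 genes and under 10% mitochondrial UMIs were kept. Classes were set by UMIs: Treg (at least 1 of Cd3e and Cd3g, at least 6 of Foxp3, Il2ra, Ikzf2 and Ctla4, at most 1 of Cd8a and Cd8b1, at most 2 of Lyz2 and C1qa), CD8 T (at least 3 of Cd8a and Cd8b1), NK (at least 2 of Ncr1 and Klrb1c, 0 of Cd3e) and myeloid (at least 10 of Lyz2 and C1qa). No class took 285 WT and 434 cKO barcodes, and 6 cKO barcodes met several gates. No doublet caller was run. UMIs were summed per class and library and given as CPM, with exact Poisson 95% intervals, and ratios have exact conditional binomial intervals. Log2 ratios carry a pseudocount of 5 CPM, which understates differences of low genes. Shares of cells, states and correlations used cells thinned to 4000 UMIs (seed 1), which left out 95 WT and 332 cKO Tregs, with exact Clopper-Pearson intervals. With 1 library per group no p-value was computed. All intervals cover counting error, and the libraries hold 49063944 (WT) and 37666195 (cKO) UMIs.

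The named genes are the 9 members, up to 3 genes per list with the largest absolute log2 ratio at a mean of at least 20 CPM, the 10 genes most like the members, and Jmjd1c and Xist; 1 gene under this rule is not reported here. Gzmb, Ccr7, Fpr1, Ncr1, Klra8, Anxa3, Scin and the gate and marker genes are named in addition. Ccr7, Anxa3 and Scin were named after their values were seen. Members, lists and states were chosen with earlier results of these data known. The counting and interval code was tested on simulated data. Python 3.11.15, numpy 2.4.6, scipy 1.17.1 and pandas 2.3.3 were used. Alternatives in scaling, gates, filters and thinning were run. The gates with few Treg UMIs or without Cd3 UMIs, Tregs of each state alone and the Gzmb bins were added after seeing the data.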

Additional observations from a re-analysis of the deposited data

Results flagged for a closer look

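S100a10 lay on different sides of 1 in 2 classes: the cKO over WT ratio was 1.08 in myeloid cells and 0.865 in Tregs. Capg did so as well, at 0.647 in CD8 T cells and 1.19 in Tregs. Each group is 1 library, so neither difference between classes was tested. Capg stood at 177 CPM in WT and 188 CPM in cKO in the CD8 T barcodes with few Treg UMIs.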

How the results depend on the processing

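In Tregs, none of the 9 genes changed direction under 14 alternatives in scaling, pseudocount, cell filters and gates. S100a6 ranged from 0.65 to 0.78 on the log2 scale (0.75 as reported), S100a11 from -0.95 to -0.82 (-0.85), Lgals3 from 0.72 to 1.08 (0.91) and Anxa2 from 0.57 to 0.68 (0.67). The count of 4 higher and 1 lower by 1.5-fold became 3 and 1 once mitochondrial and ribosomal protein genes were left out of the total, where Anxa2 was just under that fold. Median-of-ratios scaling shifted Tregs by 0.02, CD8 T cells by -0.02 and myeloid cells by 0.001 on the log2 scale. Within states, read after seeing the data, Lgals1 and Lgals3 turned to -0.11 and -0.10 in Tregs without Gzmb. S100a4 turned to 0.0283 in Tregs with Pdcd1, and Anxa1 to -0.93 in Tregs with S1pr1. The ratio interval held 1 for S100a4 (0.989 to 1.05), Anxa1 (0.0995 to 1.14) and Lgals3 (0.769 to 1.11). For Lgals1 it lay below 1 (0.893 to 0.965). In the CD8 T gate with few Treg UMIs, S100a4 turned to 3.86, S100a10 to 2.39, S100a11 to 0.89 and Capg to 0.0783. S100a10 also turned to 0.23 in CD8 T cells when gates were applied to thinned cells. In myeloid cells no gene changed direction under 11 alternatives, and 0 to 2 members were at least 1.5-fold higher. With no minimum level, 2.16% of genes were at least 1.5-fold higher and 2.22% lower in cKO Tregs, since low genes enter that the pseudocount holds near 1. No paired analysis was possible because each group has 1 library, and leaving out a library leaves no comparison. Depth limits Anxa1 in Tregs and CD8 T cells and all NK values.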
